A study of Homo sapiens with 8 samples.

Results

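The 36 genes described here encode nucleolar proteins and ribosome assembly factors, and they were followed in MeRIP-seq input and m6A peak data of MIAPaCa-2, a human cell line derived from a pancreatic carcinoma. They were taken as a named list from the 63568 genes of the count table, by a rule that uses no measured value, and all 36 were found by Ensembl identifier. The cells of the control carried a control shRNA (genotype shRNA-Control), and the METTL3-KD cells carried an shRNA against METTL3 (genotype shRNA-METTL3), the catalytic subunit of the main m6A methyltransferase. The labels name no further treatment and do not say whether either line was 1 clone or a pool. For each genotype there was 1 input library and 1 library precipitated with an antibody against m6A, each read on 2 sequencer lanes, so no difference between genotypes has a replicate check and no p-value between them was computed. The members fall into 7 snoRNP proteins, 13 small subunit factors, 12 large subunit factors and 4 multifunctional nucleolar proteins (NPM1, NCL, NOLC1 and DDX21).

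Ribosomes are assembled mainly in the nucleolus, where RNA polymerase I makes a long precursor that is cut into the mature ribosomal RNAs. Small nucleolar ribonucleoproteins (snoRNPs) modify single nucleotides of the precursor: box C/D particles add methyl groups to ribose and box H/ACA particles turn uridine into pseudouridine. Other factors fold and cleave the precursor along separate routes to the small and the large subunit, and growing tumour cells usually make many of them at high levels. m6A is a methyl mark on adenosine that METTL3 places within the letters DRACH, where D is A, G or T, R is A or G, and H is A, C or T.

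The m6A peaks that lay in member exons are shown first, because they tie the immunoprecipitated fragments to letters in the transcripts. Of the 7 such peaks over both lists at q under 0.01, 5 held a DRACH within 50 nucleotides of the summit, and the match nearest to the summit is printed with 8 bases on either side, read 5′ to 3′ on the transcript strand of hg19, with the motif in capitals.

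NOB1 (chr16:69783007-69783027, minus strand, control and METTL3-KD peak): tttcagatTGACAgaggtgag

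NOLC1 (chr10:103922200-103922220, plus strand, control peak): ttttgtacAGACTtgtttttg

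UTP14A (chrX:129055180-129055200, plus strand, control peak): ctatgcagGAACAgttgtcta

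UTP4 (chr16:69199256-69199276, plus strand, METTL3-KD peak): agcatcccAGACAaacagtat

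The remaining 2 exonic peaks, both in the control list and in NOP14 and RRP9, held none within that distance. Over all peaks with a summit in a protein-coding exon, 84.4% of the control list and 84.2% of the METTL3-KD list held a DRACH in the same window, so most such windows hold a match, and a match is given here only as a description.

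The depth of the libraries sets what can be read from the members. The 2 control input lanes held 1609215 and 1628753 reads in genes, and the METTL3-KD lanes held 906240 and 926765. Despite fewer reads, the METTL3-KD input had reads in 10463 genes against 2730 in the control, and its peak file header counts 52141 distinct positions against 9291. Reads per gene clustered at a lower mode of 511 reads in the control and 19.4 reads in the METTL3-KD input. Unless stated otherwise, intervals below are 95% exact intervals computed on reads divided by that lower mode, and they cover counting error only. The quotients were rounded to whole units first, also where the upper mode was used. The control reads of NPM1, for example, are 1.46 lower modes and entered as 1 unit. Different values can therefore share the same interval. METTL3 itself had 0 reads in each of the 4 lanes, so the knockdown could not be checked in these counts. Of the carcinoma markers, KRT8, KRT18 and VIM had reads in both inputs, KRT19 (1 control and 201 METTL3-KD reads) and ZEB1 (0 and 50) nearly or wholly in the METTL3-KD input, KRT7 had 1 control read, and EPCAM, CDH1, CDH2 and FN1 had 0. Of 3 fibroblast markers COL1A2 had 1804 control and 353 METTL3-KD reads while COL1A1 and DCN had 0, and the 4 leukocyte markers and both endothelial markers in the table were at 0.

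Most members had reads in the METTL3-KD input and none in the control. In the METTL3-KD input 33 of the 36 had 21 to 997 reads over both lanes, 22 of them under 100. In the control input 25 of these 33 stood at 0, GNL3 and RRP1B had 1 read each, and 6 had 614 to 4234 reads. GAR1, NOP2 and UTP4 were at 0 in every lane, which would allow up to 0.927 CPM (reads scaled to the library's total) in the control and 1.64 CPM in the METTL3-KD input if each read were an independent molecule (a floor of 3 reads). Counted in units of the lower mode, a 0 allows up to 473 CPM in the control and 31.7 CPM in the METTL3-KD input. Summed, the 36 genes held 11708 control reads (3616 CPM, interval 2300 to 5445) and 5118 METTL3-KD reads (2792 CPM, interval 2466 to 3151).

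**Figure D1:**
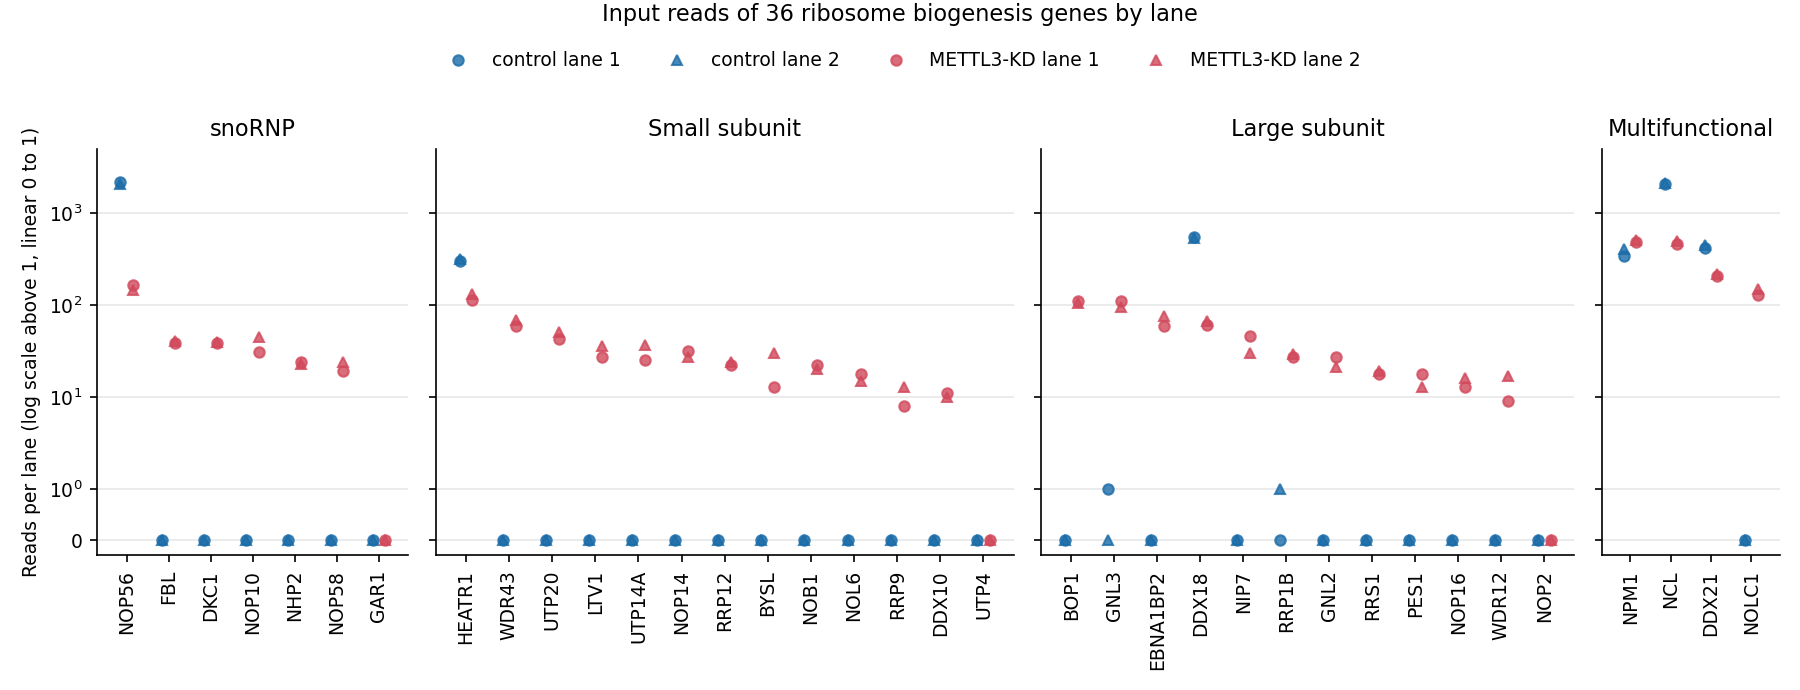
Input reads of each member in each lane, by class, on a scale that is logarithmic above 1 read and linear from 0 to 1. Circles and triangles are lanes 1 and 2, blue is control and red is METTL3-KD; 25 members sit at 0 in both control lanes while their METTL3-KD lanes hold 8 to 148 reads, and 3 sit at 0 in all lanes.

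Input reads were compared as log2 ratios, METTL3-KD over control, after TMM scaling, which trims the most extreme genes before library sizes are set. On this ratio 28 of the 33 members with at least 10 reads over both inputs lay above 2, against 79.1% of the 9931 genes tested in the same way. None lay under -2, against 7.37% of all genes, and 5 lay between. The median log2 ratio of the 33 members was 5.93, beside 5.60 for all genes tested. Of the 28 members above 2, 27 had 0 or 1 control read and the other one was NPM1. When the reads of each input were first divided by its lower mode, 4 members remained above 2 (BOP1, GNL3, NOLC1 and NPM1), and so did 5.39% of all genes; for those at 0 in the control this ratio depends on the prior count. For the 25 members at 0 in the control, the METTL3-KD reads, on the same scale, were at least 32.0-fold higher (RRP9 and DDX10) to at least 424-fold higher (NOLC1) than the floor of 3 reads, with a median bound of 73.2-fold. These bounds hold for scaled reads only. Against 3 times the control's lower mode in place of 3 reads, 0 of the 25 had a ratio above 1, the highest being 0.830 for NOLC1, so for these members no higher level in the METTL3-KD cells was bounded by the counts.

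Detection in the control was set beside detection over all genes. At least 1 control read was found for 8 of the 33 members and for 25.7% of all genes tested, and at least 10 for 6 members and 22.3% of genes. Among the 8 members with at least 200 METTL3-KD reads, 5 had at least 10 control reads, against 57.9% of the 1091 genes at that level. The 3 others, BOP1, GNL3 and NOLC1, had 0, 1 and 0 control reads beside 217, 206 and 278 METTL3-KD reads. In a bulk library, fewer cells that express a gene and less of its RNA per cell cannot be told apart.

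The snoRNP proteins were dominated by NOP56, a core protein that holds box C/D particles together. The control lanes held 2178 and 2056 of its reads, and the METTL3-KD lanes 163 and 144. Its log2 ratio was -1.59 (interval -2.83 to -0.09), the lowest of the 6 members with reads in both. With the upper mode of reads per gene in place of the lower one, the interval was -3.34 to 0.65 and included 0. FBL, the methyltransferase of the same particle, was at 0 in both control lanes and at 39 and 41 reads in the METTL3-KD lanes. The third box C/D member, NOP58, the partner of NOP56, had 0 control and 43 METTL3-KD reads.

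The box H/ACA proteins had no control read, which was the usual state, since 25.7% of all genes tested had one. DKC1, the pseudouridine synthase, was at 0 in the control and at 39 and 40 METTL3-KD reads by lane, and its partners NOP10 and NHP2 had 76 and 47 METTL3-KD reads over both lanes. With GAR1 at 0, the 4 box H/ACA genes summed to 0 control reads and 202 METTL3-KD reads (110 CPM). Over all 7 snoRNP genes the sum was 4234 control and 632 METTL3-KD reads, or 1308 CPM (interval 545 to 2487) and 345 CPM (interval 240 to 490). Every control read of the class was from NOP56. The CPM intervals did not overlap, but they were computed on the lower mode only. Under TMM scaling the log2 ratio of the sum was -0.55 (interval -1.62 to 0.84, or -2.11 to 1.52 with the upper mode). Of the 6 tested genes 5 lay above 2 and the other one, NOP56, between.

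Among the small subunit factors only HEATR1, a component of the early complex that binds the start of the precursor, had control reads. Its control lanes held 301 and 313 reads, together 1.20 times the lower mode, and its METTL3-KD lanes held 113 and 131. Its log2 ratio of 0.86 had an interval of -1.56 to 6.58, so neither direction was resolved. WDR43, which belongs to the same early complex, was at 0 in the control and at 59 and 68 reads by METTL3-KD lane. The helicase DDX10 and RRP9, a protein of the U3 snoRNP that guides early cleavage, were lowest among the members detected, with 21 METTL3-KD reads each, 8 and 13 by lane for RRP9.

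The other small subunit factors lay between these. UTP20, UTP14A, NOP14 and NOL6 are parts of the large early precursor particle, and they had 94, 62, 59 and 33 METTL3-KD reads, of which UTP14A had 25 and 37 by lane and NOP14 had 32 and 27. The later-acting factors LTV1, RRP12, BYSL and NOB1, the nuclease that makes the end of the small subunit RNA, had 63, 46, 43 and 42. All of these had 0 control reads, and UTP4 had no reads at all. The class summed to 614 control and 855 METTL3-KD reads, or 190 CPM (interval 3.99 to 879) and 466 CPM (interval 338 to 625). The log2 ratio of the sum was 2.67 (interval 0.38 to 8.27, or -0.71 to 7.27 with the upper mode), and 11 of 12 tested genes lay above 2.

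In the large subunit class, DDX18, a nucleolar helicase, held nearly all control reads. Its control lanes held 551 and 537 reads and its METTL3-KD lanes 61 and 67, with a log2 ratio of -0.89 (interval -3.11 to 2.58). BOP1, which acts with PES1 and WDR12 in the PeBoW complex, was at 0 in the control and at 111 and 106 reads by METTL3-KD lane. Its partners were lower, at 31 reads for PES1 and 26 for WDR12, both with 0 control reads. GNL3 (nucleostemin), a GTP-binding protein abundant in stem and tumour cells, was read 1 and 0 times by control lane and 110 and 96 times by METTL3-KD lane. Its ratio of scaled reads, 942, rests on 1 control read, and even with each read taken as an independent molecule its interval ran from 167 to 37389.5. RRP1B, read 0 and 1 times in the control and 27 and 29 times in the METTL3-KD input, had a ratio of 256 (interval on the reads 44.1 to 10294). Since 1 read lies far under the control's lower mode, neither interval covers the error of amplified reads.

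The remaining large subunit factors were at 0 in the control. EBNA1BP2, an early assembly factor, had 134 METTL3-KD reads, NIP7 76, the GTPase GNL2 48, RRS1, which helps to bring in the 5S particle, 37, and NOP16 29. NOP2, an RNA methyltransferase, was at 0 in all lanes. The class summed to 1090 control and 988 METTL3-KD reads, or 337 CPM (interval 38.2 to 1140) and 539 CPM (interval 402 to 709). Its log2 ratio was 2.05 (interval 0.22 to 5.23, or -0.46 to 7.49 with the upper mode), with 10 of 11 tested genes above 2.

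**Figure D2:**
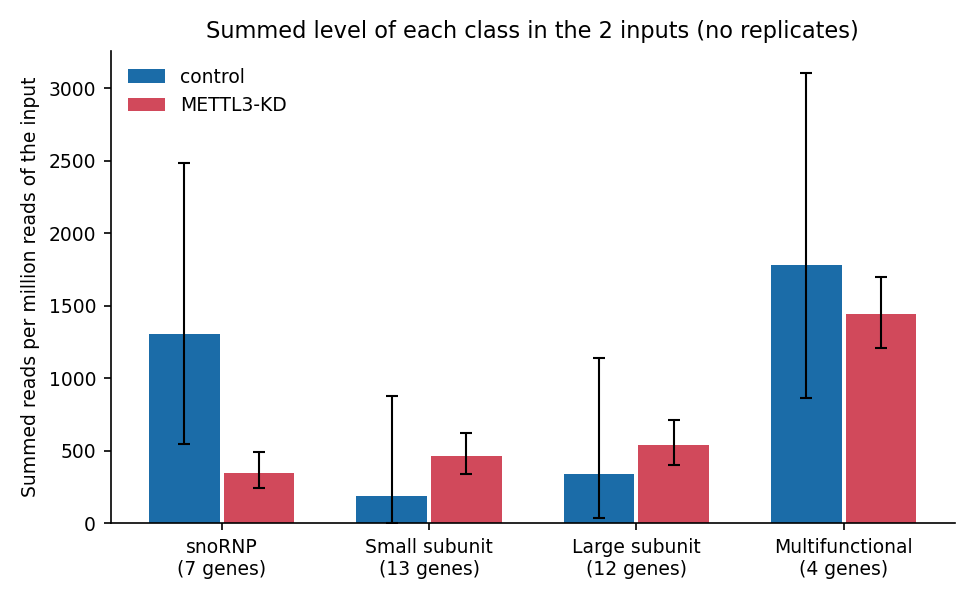
Summed CPM of the 4 classes in each input (vertical axis), control in blue and METTL3-KD in red. Bars show the single library of each genotype and error bars its 95% counting interval on the lower mode. On that unit the snoRNP intervals (545 to 2487 and 240 to 490) do not overlap, while those of the other 3 classes do. Intervals of CPM on the upper mode were not computed.

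Among the multifunctional proteins, NPM1 and NCL had the most METTL3-KD reads of any member. NPM1 (nucleophosmin), the most abundant nucleolar chaperone, was read 339 and 408 times by control lane and 489 and 508 times by METTL3-KD lane. It was the only member with more than 1 control read that passed the threshold, at a log2 ratio of 2.60 (interval 0.60 to 8.48, or -0.46 to 7.49 with the upper mode). Scaled by total counts instead, its log2 ratio was 1.23 and the call was lost. NCL (nucleolin), which binds the precursor RNA, was read 2055 and 2097 times in the control and 457 and 491 times in the METTL3-KD input, and its log2 ratio of 0.06 had an interval of -1.002 to 1.38. DDX21, a helicase that binds both polymerase I and snoRNAs, was read 420 and 451 times in the control and 205 and 215 times in the METTL3-KD input, with a log2 ratio of 1.14 (interval -1.09 to 4.07).

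NOLC1, a scaffold that chaperones snoRNPs, stood apart from the other 3 multifunctional genes in having no control read. It had 130 and 148 METTL3-KD reads, the most of any member at 0 in the control. The class summed to 5770 control and 2643 METTL3-KD reads, or 1782 CPM (interval 866 to 3105) and 1442 CPM (interval 1207 to 1702), and its log2 ratio was 1.07 (interval 0.22 to 2.14, or -0.24 to 2.44 with the upper mode). Scaled by total counts the sign turned, to -0.31.

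**Figure D3:**
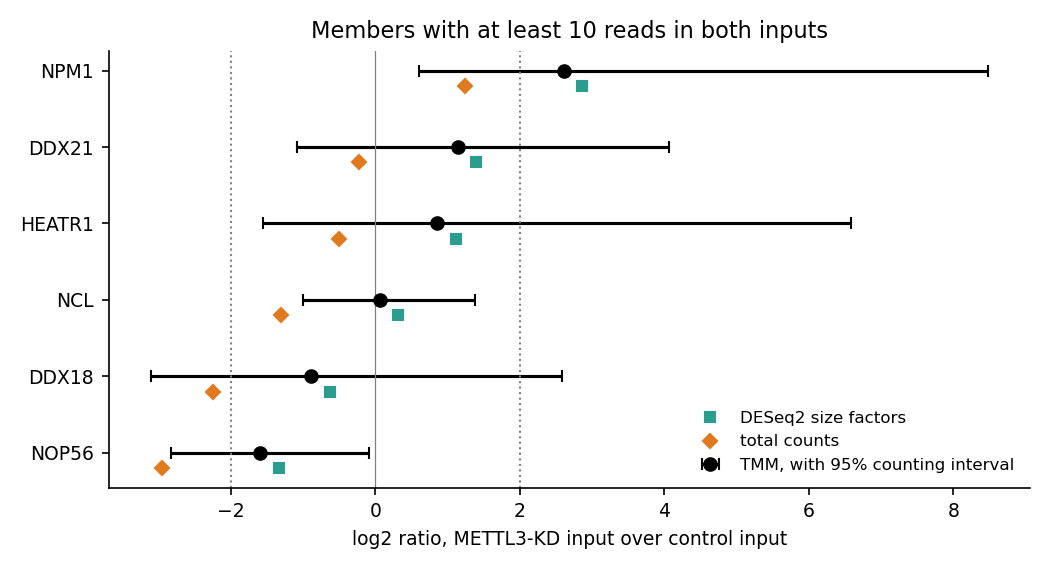
log2 ratio of METTL3-KD over control input (horizontal axis) for the 6 members with at least 10 reads in both inputs. Black points are scaled by TMM with 95% counting intervals, green squares by DESeq2 size factors and orange diamonds by total counts; dotted lines mark -2 and 2. A change of scaling moves all 6 genes alike; under total counts NPM1 falls under 2, DDX21 and HEATR1 fall under 0, and DDX18 and NOP56 fall under -2.

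The scale of these ratios depends on how the inputs are set against each other. The median log2 ratio of the 1871 genes with at least 10 reads in both inputs was -0.61 under TMM, -0.36 under DESeq2 size factors and -1.98 under total counts. Relative to the TMM median, the ratios were 3.22 for NPM1, 1.75 for DDX21, 1.47 for HEATR1, 0.67 for NCL, -0.28 for DDX18 and -0.98 for NOP56. Under total counts the log2 ratios of DDX21 and HEATR1 changed sign, to -0.23 and -0.51, and the summed small and large subunit ratios were 1.30 and 0.68, both under the threshold of 2. Among the 1871 genes 7.8% lay above 2 and 21.3% under -2, and 1 and 0 of these 6 members did. NPM1 stood at percentile 95.2 of the 1871 ratios and NOP56 at 28.6, with NCL at 65.3, and 4 of the 6 stood above the median.

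Shares within a library do not depend on that scaling. NOP56 took 36.2% of all member reads in the control (interval 16.4 to 57.3) and 5.998% in the METTL3-KD input (interval 3.50 to 9.66), and the intervals did not overlap. With the upper mode they ran from 10.9 to 69.2 and from 2.90 to 11.5 and overlapped slightly. NPM1 took 6.38% in the control (interval 0.11 to 22.0) and 19.5% in the METTL3-KD input (interval 14.7 to 24.6), and these intervals overlapped. The snoRNP class took 36.2% (interval 16.4 to 57.3) and 12.3% (interval 8.76 to 17.1). Large subunit factors took 9.31% (interval 1.07 to 28.0) and 19.3% (interval 14.7 to 24.6), and small subunit factors 5.24% (interval 0.11 to 22.0) and 16.7% (interval 12.4 to 21.7). The multifunctional proteins took 49.3% (interval 26.8 to 69.4) and 51.6% (interval 45.3 to 57.7). For each of the 4 classes the intervals of the inputs overlapped.

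Ratios between single genes of 1 library are free of the scaling as well. There were 0.180 NPM1 reads for each NCL read in the control (interval 0.00282 to 0.932) and 1.05 in the METTL3-KD input (interval 0.689 to 1.57). NOP56 had 1.02 reads for each NCL read in the control (interval 0.327 to 3.06) and 0.324 in the METTL3-KD input (interval 0.173 to 0.584). Both pairs of intervals overlapped. Overlap alone does not settle whether the ratios differed between the inputs, and this was not tested.

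Per length of the annotated transcript, the members spanned a 234-fold range in the METTL3-KD input. NPM1 was highest at 755 reads per kb, 3.13 times NCL at 242, followed by NOP56 at 160, NOP10 at 150 and GNL3 at 107. Between 10 and 99 reads per kb lay 25 members, and 3 (NOL6, DDX10 and WDR12) lay lower, down to 3.22 for WDR12. That low end rests on 26 reads, 1.34 times the lower mode, over an annotated transcript of 8068 bases. NOP10, the shortest member at 507 bases, ranked among the highest on this scale although its 76 reads were close to the counts of DKC1 and FBL. In the control the order on the same scale was NOP56 at 2213 reads per kb, NCL at 1058 and NPM1 at 566. DDX18 at 290, DDX21 at 187 and HEATR1 at 72.6 followed. By these point values NOP56 and NCL stood above NPM1 in the control and under it in the METTL3-KD input. The control reads of NPM1 equal only 1.46 times the lower mode. No interval was computed per kb, so whether the order differed between the inputs was not tested.

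**Figure D4:**
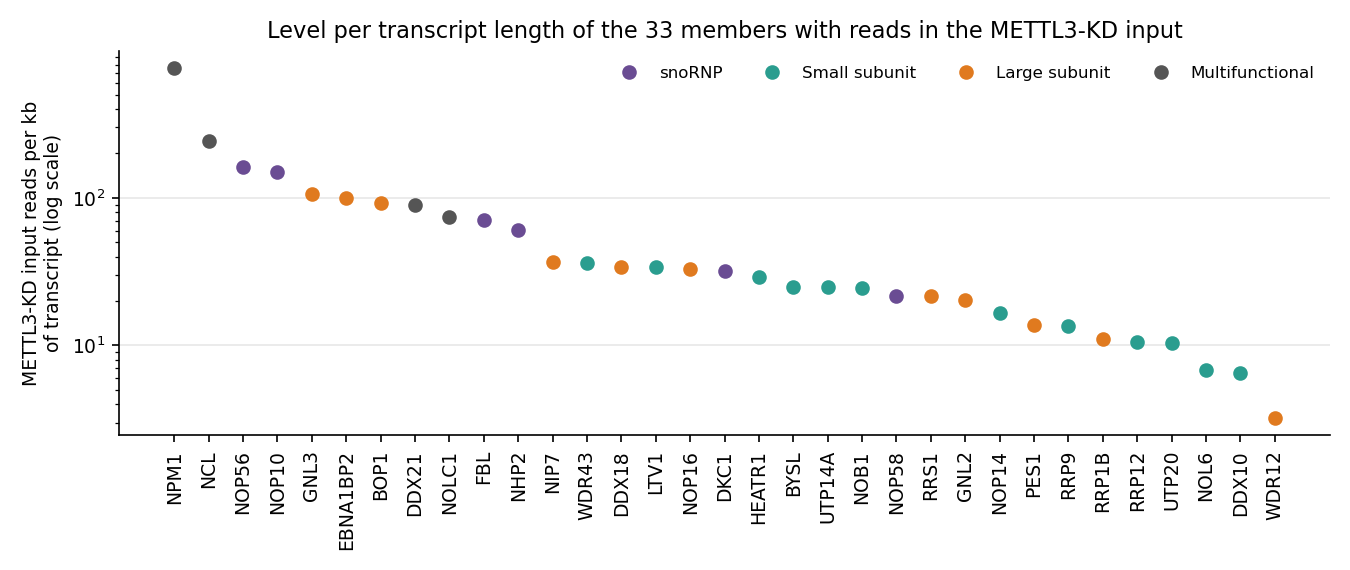
METTL3-KD input reads per kb of annotated transcript (vertical axis, logarithmic) for the 33 members with reads, ordered from highest to lowest and coloured by class. NPM1, NCL, NOP56, NOP10 and GNL3 lie above 100 reads per kb and WDR12 is lowest at 3.22.

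Some member counts may include reads of other genes. Exon bases are shared with another annotated gene by 15 members, and whether counting used strand is not given in the sources used here. NOP16 had the same counts in all 4 lanes as ARL10 on the opposite strand (13 and 16 reads in the METTL3-KD lanes), and NOB1 the same as NQO1-DT (22 and 20), so these reads cannot be assigned to one of the pair. HEATR1 shares 2095 exon bases with LGALS8 on the opposite strand, which had 0 control and 101 METTL3-KD reads. NIP7 shares 873 with COG8 (0 and 96 reads) and NHP2 414 with RMND5B (0 and 91). How many reads such pairs have in common is not known. NPM1 has 49 annotated pseudogenes in the table, and 10 of them held 596 METTL3-KD reads in all, against 997 for NPM1 itself, with 0 in the control. Pseudogenes of 10 other members had no reads. Of 20 small RNA genes annotated inside 6 members, SNORA51 in NOP56 had 30 METTL3-KD reads and SNORA75 in NCL had 7, all others were at 0, and none had a control read.

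Other ribosome biogenesis genes were read from a fixed list of 124, of which 97 were tested. Above 2 lay 81 of them (83.5%, beside 79.1% of all genes), under -2 lay 5 (beside 7.37%), and 17 had at least 10 control reads (17.5%, beside 22.3%), so the list stood near the background. All 10 tested genes of the RNA exosome and ribosomal RNA nucleases lay above 2, as did 10 of 13 polymerase I genes, 5 of 6 snoRNP assembly genes, 26 of 29 other small subunit genes and 30 of 39 other large subunit genes. The 5 lower ones, named after their values were seen, were POLR1B and TAF1A of the polymerase I machinery, UTP25 and MPHOSPH10 of the small subunit route and MRTO4 of the large subunit route. MPHOSPH10, which is bound to the U3 snoRNP as RRP9 is, had 908 control reads and 0 METTL3-KD reads, against 0 and 21 for RRP9. The 908 reads lie under the control's upper mode of 1036, and the 21 equal 1.08 times the METTL3-KD lower mode. Of the 17 genes with at least 10 control reads, 8 lay within 10% of the control's lower mode and 6 within 10% of its upper mode. These contrasts therefore rest on few counting units. Of the members, 0 lay within 10% of the control's lower mode and 1 within 10% of its upper mode. The intervals given for members still use the lower mode as their unit.

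The m6A peak lists touched 12 of the 36 members. In the control list, 8 of 2298 peaks at q under 0.01 had their summit within a member, 5 in exons and 3 in introns. In the METTL3-KD list, 6 of 830 did, 2 in exons and 4 in introns. An exonic control peak was found for 5 of the 33 tested members, against 11.0% of all genes tested, and an exonic METTL3-KD peak for 1 of them, against 2.63%. UTP4, the other member with an exonic METTL3-KD peak, was not among the tested genes. With a fold enrichment above 2 also required, which is how the study marks significant peaks, the exonic control peaks of RRP9, UTP14A and NOP14 remained and no METTL3-KD peak did, since each member peak of 1 fragment stood just under that fold.

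The control peak with the most fragments was in RRP9. It lay at chr3:51967548-51967650 in the coding part of exon 15 of 15, 74 nucleotides before the last coding base, with a pileup of 4 fragments at the summit, a fold enrichment of 4.999 and a −log10 q of 13.4. UTP14A followed with 3 fragments in the coding part of exon 11 of 15 (chrX:129055127-129055228), 12 nucleotides from the GAACA printed above. NOP14 had 2 fragments in the coding part of exon 13 of 18 (chr4:2945858-2945958). These 3 were the exonic member peaks above 1 fragment in either list.

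The peaks of NOLC1 and NOB1 rested on 1 fragment each. The NOLC1 peak lay in the 3′ UTR within exon 13 of 13 (chr10:103922140-103922239), 167 nucleotides past the last coding base, and it was the only member peak in a 3′ UTR. The control peak of NOB1 (chr16:69783007-69783106) lay in an exon of a retained-intron isoform. The METTL3-KD peak of NOB1 (chr16:69782951-69783050) lay in the coding part of exon 6 of 9, so the 2 summits were 56 bases apart, the peaks shared 44 bases, and the TGACA printed above was the nearest match of both. NOB1 was the only member with a peak in both lists.

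UTP4 had 1 fragment in the coding part of exon 15 of 17 in the METTL3-KD list (chr16:69199216-69199315), with its summit on the A of the AGACA printed above, and a second peak in an intron 8 bases from an exon. The other intronic METTL3-KD peaks were in GAR1, 32 bases from an exon, BYSL and DDX10, each of 1 fragment. In the control list the intronic peaks were in GNL2 (3 fragments, 16 bases from an exon), DDX21 (2 fragments, 12 bases) and WDR43 (2 fragments, 1976 bases). All 6 METTL3-KD member peaks were thus at the lowest pileup, as were 61.8% of that list and 52.05% of the control list. The peak file headers count 7920 distinct positions in the control m6A library and 4508 in the METTL3-KD one.

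All 5 members with an exonic control peak had 0 control input reads, near the share over all genes, since 80.1% of the 1231 protein-coding genes with such a peak had 0. DDX21, with its intronic control peak, was the only one of the 6 members with at least 10 control input reads that had a control peak. UTP4 and GAR1, with peaks in the METTL3-KD list, had 0 input reads in every lane. Of the protein-coding genes with an exonic METTL3-KD peak, 32.6% had 0 METTL3-KD input reads.

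**Figure D5:**
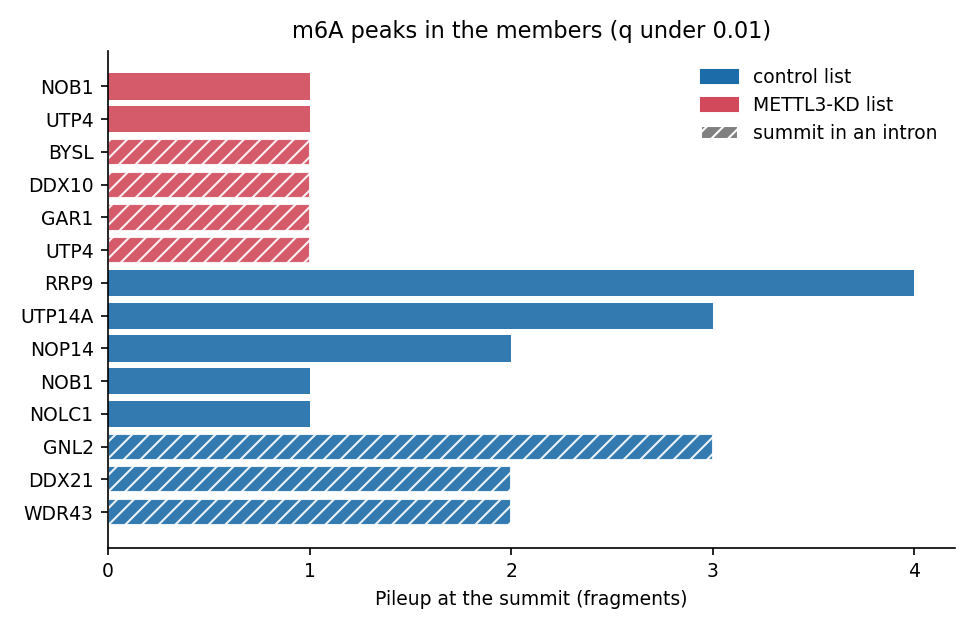
Number of fragments at the summit (pileup, horizontal axis) of each m6A peak at q under 0.01 within a member, control list in blue and METTL3-KD list in red, with hatched bars for summits in introns. The METTL3-KD peaks all stand at 1 fragment, while the control peaks run from 1 (NOB1 and NOLC1) to 4 (RRP9); the lists come from libraries of different depth.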

How the data were processed

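Per the methods and the labels' tool list, ribosomal reads were taken out with Bowtie2 and the rest aligned to hg19 with HISAT2, and the authors deposited raw read counts per gene from featureCounts, 1 column per input lane. The use of strand and the treatment of reads with several alignments are not given in the sources used here. The authors called peaks with MACS2 2.1.1, m6A library against input, lanes pooled, 1 read kept per position. In the deposited peak files the pileup is a signal in fragments, fold enrichment sets the pileup against a local background, and a −log10 column holds q-values. For member peaks at q under 0.01 the fold was close to the pileup plus 1, from 1.999 at 1 fragment to 4.999 at 4. It thus largely restates the fragment count. The file headers give a q cut-off of 0.05 and the methods 0.01, and 0.01 was used here, with the further fold criterion of the study's supplement as an alternative.

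The 2 lanes of each input were summed and counted as 1 sample. Log2 ratios were scaled by TMM in edgeR 4.0.16, with 2 as the prior count and a minimum of 10 reads over both inputs, and the size threshold of 2 follows the study. The calculation was tested on simulated data, drawn as independent counts around a profile shared by both inputs. Those data lack the clustering of reads at modes, so the test covers the arithmetic and not the ratios reported here. Modes were the lowest 2 maxima of a kernel density of log10 reads per gene (bandwidth 0.03). GENCODE release 44, lifted to GRCh37 (hg19), gave the feature at each summit. Transcript lengths are those of the canonical transcript, or for BOP1 of the longest protein-coding one. Values by lane are given for members with at least 10 reads in both inputs, for the 2 members of each class with the most METTL3-KD reads and for members with exonic peaks, and values of others were added where they complete a class. The rule for the members uses no measured value, but members and lists were chosen with earlier results of these data known. Alternatives comprised DESeq2 1.42.0 size factors, total counts, other prior counts, read minimums and peak thresholds, single lanes, and lanes as replicates.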

Additional observations from a re-analysis of the deposited data

How the results depend on the processing

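No setting took a member from above 2 to under -2 or the reverse. This was largely fixed in advance, since 27 of the 28 members above 2 had 0 or 1 control read. Calls were lost or gained, as listed below. Of 58 recomputed values for the whole set or a class, 45 were counted as unchanged within the limits set. Those limits passed the summed small and large subunit ratios under total counts, although both fell under the threshold of 2. Under total counts 2 members lay under -2 (DDX18 and NOP56), the summed snoRNP log2 ratio was -1.92 and the summed multifunctional one -0.31 with its sign changed, the small and large subunit sums fell under 2 (1.30 and 0.68), and the median of genes in both inputs was -1.98. At a threshold of 1, 1 member lay on the lower side. The count above 2 was 4 after division by the lower mode and 15 at a minimum of 50 reads, which leaves fewer genes to test. Apart from that, the cause of these moves was not tested. At that minimum 52 other pathway genes lay beyond 2 in either direction, against 86. Exonic control peaks numbered 3 at q under 0.001 and 3 at a fold enrichment above 2. Exonic METTL3-KD peaks numbered 4 in the full list, 4 when 1 base in an exon sufficed, 0 at q under 0.001 and 0 at a fold above 2. In both lists the stricter q and the fold cut removed the same member peaks, those of 1 fragment. They are therefore not separate checks. With 1 lane left out, 26 to 28 members lay above 2, the lower count because RRP9 and WDR12 fell under the read minimum in a single lane, and 7 had control reads either way. Without NPM1, an alternative chosen after seeing the data, the multifunctional log2 ratio was 0.58.

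With lanes as replicates in edgeR, 28 members lay above 2 and 0 under -2, and a replicate block on the lane number left both counts as they were. Lane numbers in the sample titles are the source of the pairing, and lane deviations of the inputs correlated at -0.0148 over 1871 genes, so the lanes share only a number. Precision is limited by the control input, whose member reads equal 22.9 times its lower mode, against 264 in the METTL3-KD input.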
